A study of Mus musculus with 8 samples.

Results

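Histone and protein methylation enzymes were followed in mouse MDSCs (myeloid-derived suppressor cells, a population of immature myeloid cells known for suppressing T cells) after exposure to Romidepsin, an inhibitor of histone deacetylases. The genes were chosen by symbol alone: lysine methyltransferases (Kmt, Setd, Ehmt, Nsd, Ezh, Suv39h and Dot1l), arginine methyltransferases (Prmt) and demethylases (Kdm). The rule found 54 genes among 26930 in the count table. One of them, Kdm6bos, is an RNA antisense to Kdm6b and not an enzyme. Of the 54 genes, 52 passed the filter on low counts and were tested. Kdm6bos and Kdm4d, a testis-enriched H3K9 demethylase, were at or near 0 in every library and were not tested.

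Poly(A) RNA was sequenced from 2 groups of 4 libraries. In the Romidepsin group, cells from bone marrow of C57BL/6 mice were exposed to 0.5 µM of the drug for 6 h. The untreated group had the same culture without the drug. Both groups had been grown with GM-CSF and IL-6, each at 40 ng/ml, and were moved on day 4 into medium conditioned by TRAMP-C1 cells, a mouse prostate tumour line; the labels describe them as senescent-like. No label names separate animals or cultures, so the p-values reflect spread between libraries that could be technical only.

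Lysine methyltransferases transfer methyl groups from S-adenosylmethionine (SAM) to histone tails and to some other proteins, and the site decides how the mark is read. Methylation of H3K4 and H3K36 accompanies active genes, whereas that of H3K9 and H3K27, and trimethylation of H4K20, accompanies silent or compacted chromatin. Arginine methyltransferases modify histones, splicing factors and other RNA-binding proteins. Demethylases of the LSD and JmjC families remove the marks. Most of these enzymes occur as closely related pairs or trios with overlapping substrates.

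Total counts ranged from 13227311 to 15396077 per Romidepsin library and from 12996892 to 23176949 per untreated library. Treated replicate 3 lay nearest to the untreated libraries, with correlations of 0.925 to 0.946 to them over all tested genes, against 0.788 to 0.892 for the other treated libraries. All 11 myeloid markers examined passed the filter, and their summed level was 1290.5 to 6817 CPM (depth-scaled counts, with TMM library factors) in treated libraries and 8183 to 12541 CPM in untreated ones. Summed B cell markers (5 of 5 passed) were at 17.5 to 77.7 CPM in treated and 82.9 to 279 CPM in untreated libraries, and those of dendritic cells (3 of 6 passed) at 7.81 to 62.7 and 74.7 to 128 CPM. Of the markers tested one by one, 2 of 11 myeloid (Spi1 and Csf3r), 4 of 5 B cell and 1 of 3 dendritic markers were lower. Cd3d of the T and NK list and Fcer1a of the mast cell and basophil list were also lower. No marker was higher. Of all tested genes, 16.2% were lower and 20.3% higher. The dendritic sum was mostly Ccr7, at 16.2 ± 19.9 CPM in treated and 86.2 ± 23.6 CPM in untreated libraries (SD, n = 4 each). Zbtb46 was above the same-numbered untreated library in 4 of 4 pairs. With the replicate block, Zbtb46 (1.12, adjusted p 0.0322) and Col1a1 (1.37, adjusted p 0.0134) passed as higher. Myeloid Ptprc (-1.46, adjusted p 0.00857), Csf1r (-2.10, adjusted p 0.00571) and Ly6c2 (-1.66, adjusted p 0.0346) passed as lower with it. So did the B cell marker Ms4a1 (-1.56, adjusted p 0.00373), whereas Cd3d no longer passed (-1.78, adjusted p 0.0695). Markers of T and NK cells (2 of 6) summed to 1.13 to 3.87 CPM in treated and 1.73 to 24.5 CPM in untreated libraries, and stromal and epithelial markers (3 of 6) to 7.15 to 156 and 2.9 to 45.3 CPM. Megakaryocyte markers (3 of 4) lay at 314 to 702 CPM in treated and 294 to 634 CPM in untreated libraries, mast cell and basophil markers (3 of 5) at 3.44 to 16.8 and 13.8 to 19.2 CPM, and erythroid markers (none of 5 passed) at no more than 0.453 and 0.904 CPM. The part of these shifts in the results below was not tested. In bulk RNA, fewer cells of a type and less RNA per cell cannot be told apart.

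Methylation enzymes were called lower more often than higher after Romidepsin. Of the 52 tested, 18 (34.6%) were lower and 6 (11.5%) higher at an adjusted p (Benjamini-Hochberg, edgeR quasi-likelihood test, over all 12852 genes tested) below 0.05. Among all tested genes, 16.2% were lower, 20.3% higher and 36.5% either. The members' median log2 fold change, treated over untreated, was -0.17, beside 0.01 for all tested genes. Genes grouped as lysine methyltransferases gave 10 lower and 1 higher of 28. That grouping follows gene family and holds Kmt2e, Setd3 and Setd5, not all of which are known to methylate lysine. Arginine methyltransferases gave none lower and 3 higher of 7, and demethylases 8 lower and 2 higher of 17. The values of the 2 groups did not overlap for 17 members with treated lower (background 16.5% of genes) and for 4 with treated higher (background 18.7%, and 35.2% for either).

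The number of members called in each direction depends on the scaling, as it does for all genes. With library size alone, 10 of the 52 members were lower and 11 higher (background 10.6% and 30.2%). With scaling to 20 housekeeping genes, 3 of the 52 were lower and 20 higher (background 4.79% and 46.6%). These scalings put the median log2 fold change of all genes at 0.31 and 0.73, against 0.01 with TMM. The members' median was 0.14 and 0.55, against -0.17 with TMM, and so lay below that of all genes under each. Kmt5b, Setd1b and Kdm8 were lower, and Prmt5, Prmt7, Kdm1b and Kdm4b higher, under TMM, DESeq2 size factors, library size and housekeeping scaling alike. The other 15 lower members did not pass with housekeeping scaling, and 6 of them turned sign there. Those that kept their sign included Kdm3b and Nsd1 (both -0.77), Kmt2e (-0.62), Kdm4a (-0.22) and Ehmt2 (-0.14). Leaving out treated replicate 1, 2 or 4 left 10, 10 and 9 lower and 2, 1 and 2 higher members. Over all tested genes, these fits gave 1216, 1298 and 1183 lower and 1793, 1822 and 1940 higher. With all libraries, 2080 genes were lower and 2610 higher. Leaving out untreated replicate 1, 2 or 3 left 3, 2 and 2 higher members, and 2309, 1942 and 1716 higher genes among all tested. Prmt5 and 9 lower members (Kmt5b, Setd1b, Kdm8, Kdm3b, Nsd1, Kmt2e, Kdm4a, Kdm2a and Ehmt2) passed in all 8 fits that leave out 1 library. Without treated replicate 3, 19 were lower and 7 higher, and without both libraries numbered 3, an alternative chosen after seeing the data, 18 and 5. Of all tested genes, 3010 were lower and 3146 higher without treated replicate 3, and 2434 and 2585 without both.

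**Figure D1:**
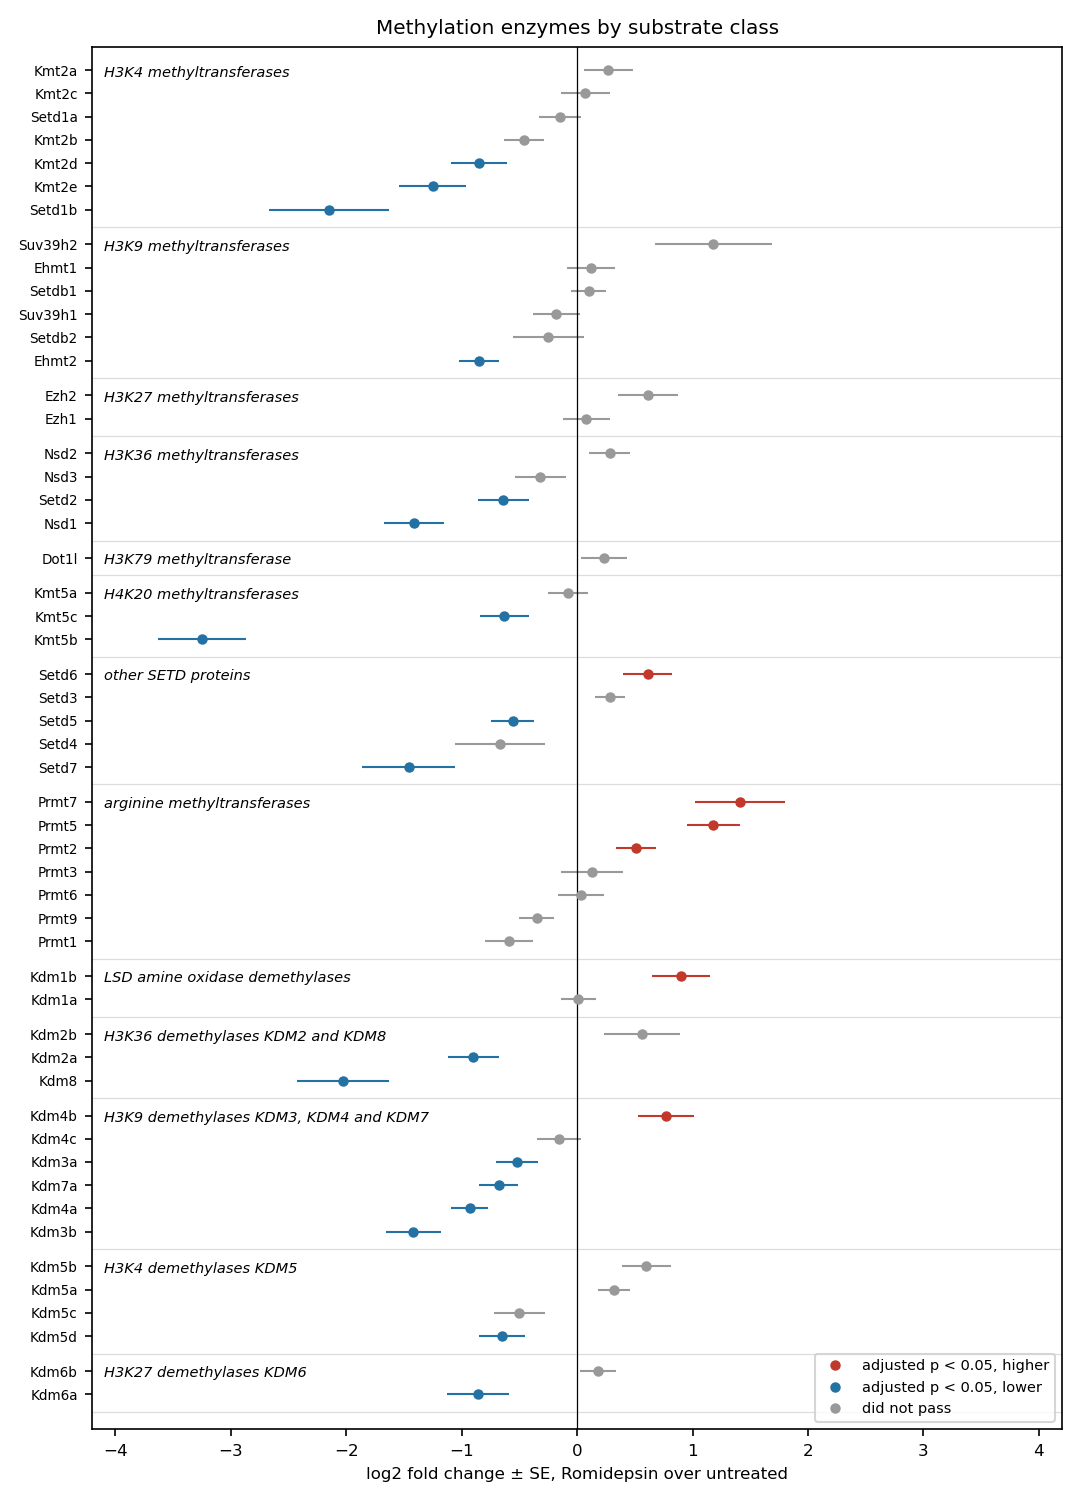
Log2 fold change (Romidepsin over untreated, x axis) of the 52 tested methylation enzymes, grouped by substrate class, with bars of 1 SE. The 18 called lower (blue) run down to -3.25 for Kmt5b and the 6 called higher (red) up to 1.41 for Prmt7, and 28 (grey) did not pass.

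The largest difference of any methylation enzyme was in H4K20. Kmt5b (SUV420H1), which carries H4K20 from the mono- to the di- and trimethylated state, had 3.61, 3.62, 8.94 and 3.56 CPM in Romidepsin replicates 1 to 4, against 38.1, 37.0, 41.7 and 70.6 CPM in untreated replicates 1 to 4. Every treated library lay below every untreated one, and treated replicate 3 was the highest of the treated. The log2 fold change was -3.25 ± 0.38 (SE), adjusted p 0.00108, or 9.51-fold lower. Kmt5c (SUV420H2), which adds the same marks and acts mainly at heterochromatin, fell far less, with 55.0, 45.5, 66.0 and 53.1 CPM in treated cells and 106, 99.3, 72.2 and 61.8 CPM in untreated cells. Its groups overlapped at treated replicate 3 and untreated replicate 4, and its log2 fold change was -0.63 ± 0.21 (SE), adjusted p 0.0412. That call did not hold with a replicate block (-0.60, adjusted p 0.0611), without treated replicate 1, 2 or 4 or untreated replicate 1, 2 or 3 (adjusted p 0.06 to 0.104), or with library size scaling, and the sign turned to 0.11 with housekeeping scaling. Kmt5a (SET8), which monomethylates H4K20, had 138, 108, 167 and 157 CPM in treated cells and 165, 144, 148 and 146 CPM in untreated cells. Its groups overlapped and it did not pass, with a log2 fold change of -0.08 ± 0.17 (SE), adjusted p 0.732. An opposite-strand gene, Gm16066, shares exon sequence with Kmt5b, and the strand setting of the counting is not given in the sources used here.

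The sequences before the starts of Kmt5b and Kmt5c are shown because the paralogs share a substrate and differ in response. They are the plus strand of chr19 and chr7 in RefSeq's GRCm38.p6 windows, at chr19:3767171-3767420 and chr7:4739877-4740114, written 5′ to 3′ up to the annotated gene. Capitals mark a GC box (GGGCGG) or CCAAT box on either strand.
Kmt5b: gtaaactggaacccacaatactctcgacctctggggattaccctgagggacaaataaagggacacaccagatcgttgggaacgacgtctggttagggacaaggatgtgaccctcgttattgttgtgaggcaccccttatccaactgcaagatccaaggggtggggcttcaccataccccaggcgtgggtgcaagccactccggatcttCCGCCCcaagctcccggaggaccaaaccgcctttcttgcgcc
Kmt5c: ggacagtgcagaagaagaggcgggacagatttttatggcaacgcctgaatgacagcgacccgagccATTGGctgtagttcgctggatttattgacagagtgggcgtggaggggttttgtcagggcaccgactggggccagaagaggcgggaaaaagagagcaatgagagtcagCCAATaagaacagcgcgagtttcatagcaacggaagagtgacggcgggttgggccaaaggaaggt
The Kmt5b window held 1 GC box and no CCAAT box, and the Kmt5c window 2 CCAAT boxes and no GC box.

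Among genes grouped by family as H3K4 methyltransferases, 3 of 7 were lower and none higher (16.2% and 20.3% of all tested genes). Kmt2e is counted among the 3. Setd1b, the catalytic subunit of a SET1/COMPASS complex that places broad H3K4 methylation at active promoters, had 5.91, 7.43, 32.4 and 17.1 CPM in Romidepsin replicates 1 to 4, against 47.2, 59.9, 67.1 and 105 CPM in untreated replicates 1 to 4. All treated values were below all untreated ones, with treated replicate 3 the highest of its group. Its log2 fold change was -2.15 ± 0.52 (SE), adjusted p 0.0142. Its call was missed in only 1 alternative, the fit with no count filter (adjusted p 0.0592). Kmt2e (MLL5), a SET protein that reads H3K4 methylation and is thought to lack methyltransferase activity, had 48.7, 45.3, 112 and 76.9 CPM in Romidepsin replicates 1 to 4, against 147, 166, 169 and 191 CPM in untreated replicates 1 to 4. The groups did not overlap, and the log2 fold change was -1.25 ± 0.29 (SE), adjusted p 0.011. Srpk2 shares exon sequence with it on the opposite strand. Kmt2d (MLL4), an enhancer H3K4 monomethyltransferase, had 72.8, 90.8, 145 and 110.5 CPM in Romidepsin replicates 1 to 4, against 168, 181, 159.9 and 244 CPM in untreated replicates 1 to 4. These groups were also separate, with a log2 fold change of -0.85 ± 0.24 (SE), adjusted p 0.024, but the call did not hold without treated replicate 1, 2 or 4 or untreated replicate 4 (adjusted p 0.0513 to 0.0644) or with library size scaling (adjusted p 0.0515).

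The relatives of these enzymes did not pass with all libraries and TMM. Kmt2b (MLL2), the promoter-directed relative of Kmt2a, had 54.4, 69.2, 63.5 and 58.5 CPM in treated cells and 74.3, 82.8, 73.8 and 108 CPM in untreated cells. Its groups did not overlap, but its log2 fold change of -0.46 ± 0.17 (SE), adjusted p 0.055 missed the threshold. It passed as lower with DESeq2 size factors (-0.49, adjusted p 0.0432), by DESeq2's Wald test and without treated replicate 3. Kmt2a (MLL1), required for blood stem cell identity, Kmt2c (MLL3), the paralog of Kmt2d, and Setd1a, the paralog of Setd1b, had log2 fold changes of 0.27, 0.07 and -0.15, each with overlapping groups. Setd1a shares exon sequence with Gm49388 on the same strand.

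H3K36 methyltransferases gave 2 lower and none higher of 4 (16.2% and 20.3% of all tested genes). Nsd1, which mono- and dimethylates H3K36, had 44.2, 41.9, 70.9 and 47.1 CPM in Romidepsin replicates 1 to 4, against 108, 114, 120.0 and 199 CPM in untreated replicates 1 to 4. Treated values were all lower than untreated ones, and untreated replicate 4 stood above the rest of its group. Nsd1 had a log2 fold change of -1.41 ± 0.26 (SE), adjusted p 0.0046. Setd2, the enzyme of H3K36 trimethylation on transcribed genes, had 50.0, 67.1, 87.4 and 72.9 CPM in treated cells and 87.2, 90.8, 112 and 143 CPM in untreated cells. The groups overlapped, the log2 fold change was -0.64 ± 0.22 (SE), adjusted p 0.0476, and the call did not hold without treated replicate 1, 2 or 4 or untreated replicate 2, 3 or 4 (adjusted p 0.0594 to 0.118), nor with library size or housekeeping scaling, where it was -0.36 and 0.016. Nsd3, which gives rise to a long and a short form, had 111, 132, 151 and 118 CPM in treated cells and 109, 140.4, 173 and 215 CPM in untreated cells, with overlapping groups, and did not pass (-0.32 ± 0.22 (SE), adjusted p 0.275). Nsd2, the enzyme deleted in Wolf-Hirschhorn syndrome, had a log2 fold change of 0.28 and did not pass.

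Of 6 H3K9 methyltransferases, Ehmt2 was lower (16.7%, beside 16.2% of all tested genes) and none was higher (beside 20.3%). Ehmt2 (G9a), which monomethylates and dimethylates H3K9 together with Ehmt1 (GLP), had 137, 135, 185 and 142 CPM in Romidepsin replicates 1 to 4, against 251, 277, 279.8 and 268 CPM in untreated replicates 1 to 4. Its groups did not overlap, and treated replicate 3 lay above the other treated libraries. Its log2 fold change was -0.85 ± 0.17 (SE), adjusted p 0.00629. Ehmt1 itself had 68.0, 75.8, 49.0 and 57.4 CPM in treated cells and 58.2, 46.8, 47.8 and 76.9 CPM in untreated cells, overlapping throughout, with a log2 fold change of 0.12 ± 0.21 (SE), adjusted p 0.661. Setdb1, which trimethylates H3K9 at retrotransposons, had 69.1, 79.6, 74.0 and 80.4 CPM in treated cells and 72.6, 65.4, 60.9 and 84.2 CPM in untreated cells, with overlapping groups, and did not pass (0.10 ± 0.15 (SE), adjusted p 0.614). Suv39h2, which trimethylates H3K9 at pericentric heterochromatin and is enriched in testis, was barely expressed, with 5.33, 5.97, 1.65 and 2.46 CPM in treated cells and 2.80, 1.57, 0.904 and 1.55 CPM in untreated cells. Each treated library was above the untreated library of its number, and its log2 fold change of 1.18 ± 0.51 (SE), adjusted p 0.0943 did not pass. It passed with the replicate block (1.10, adjusted p 0.0373), with housekeeping scaling (2.01, adjusted p 0.0157) and without treated replicate 3 (1.41, adjusted p 0.0317). Its broadly expressed paralog Suv39h1 had a log2 fold change of -0.18, and Setdb2 one of -0.25, and both did not pass.

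Neither H3K27 methyltransferase passed. Ezh1, the catalytic subunit of Polycomb repressive complex 2 (PRC2) that prevails in non-dividing cells, had 75.6, 87.1, 74.8 and 70.6 CPM in treated cells and 58.0, 61.1, 70.8 and 102 CPM in untreated cells. Untreated replicate 4 was its highest library and the groups overlapped, with a log2 fold change of 0.08 ± 0.20 (SE), adjusted p 0.766. Ezh2, the subunit of dividing cells, had 44.1, 56.7, 31.4 and 34.2 CPM in treated cells and 38.1, 28.1, 21.0 and 21.8 CPM in untreated cells. It was above the same-numbered untreated library in 4 of 4 pairs, and its log2 fold change of 0.61 ± 0.26 (SE), adjusted p 0.0863 did not pass. It passed with the replicate block (0.61, adjusted p 0.0347), with library size and housekeeping scaling (0.92 and 1.42), and without treated replicate 3 or untreated replicate 1 (0.71 and 0.82). Dot1l, the sole known H3K79 methyltransferase, had 62.6, 84.0, 67.4 and 64.5 CPM in treated cells and 44.3, 49.1, 68.1 and 76.3 CPM in untreated cells, with overlapping groups, and did not pass (0.23 ± 0.20 (SE), adjusted p 0.392).

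The remaining SETD proteins act mostly on other substrates. Of 5 tested, 2 were lower and 1 higher (16.2% and 20.3% of all tested genes). Setd7 (SET7/9), which monomethylates H3K4 in vitro and many non-histone proteins, had 17.1, 17.0, 54.1 and 31.2 CPM in Romidepsin replicates 1 to 4, against 72.3, 59.4, 71.5 and 125 CPM in untreated replicates 1 to 4. Treated values did not reach the untreated range, and the log2 fold change was -1.46 ± 0.40 (SE), adjusted p 0.0219. Its call did not hold without treated replicate 1, 2 or 4 or untreated replicate 4 (adjusted p 0.0508 to 0.0557), nor with housekeeping scaling (-0.89, adjusted p 0.0802). Setd6, which methylates the NF-κB subunit RelA, had 25.3, 25.7, 16.5 and 21.8 CPM in Romidepsin replicates 1 to 4, against 16.7, 16.2, 14.2 and 11.7 CPM in untreated replicates 1 to 4. Only treated replicate 3 fell into the untreated range, and the log2 fold change was 0.61 ± 0.21 (SE), adjusted p 0.0445. That call did not hold without treated replicate 1, 2 or 4 or untreated replicate 1, 2, 3 or 4 (adjusted p 0.0551 to 0.117) or with DESeq2 size factors (adjusted p 0.0527). Setd5, a chromatin regulator whose own enzymatic activity is debated, had 84.2, 87.8, 125 and 97.8 CPM in treated cells and 128, 139, 129 and 184 CPM in untreated cells. No treated value reached the untreated range and its log2 fold change was -0.56 ± 0.19 (SE), adjusted p 0.0466, but it did not pass with the replicate block (adjusted p 0.0531), without treated replicate 1, 2 or 4 or untreated replicate 1, 2, 3 or 4 (adjusted p 0.0554 to 0.125), or with library size scaling, and turned to 0.11 with housekeeping scaling. Setd3, a histidine methyltransferase of actin, had 121, 119, 106 and 124 CPM in treated cells and 103, 90.2, 97.3 and 95.9 CPM in untreated cells. Its groups did not overlap with treated higher, yet its log2 fold change of 0.28 ± 0.13 (SE), adjusted p 0.113 did not pass. Setd4 had the lowest uncalled value (-0.67 ± 0.39 (SE), adjusted p 0.195).

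Arginine methyltransferases gave 3 higher and none lower of 7 (20.3% and 16.2% of all tested genes). Prmt5, the main enzyme of symmetric arginine dimethylation, needed for spliceosome assembly, had 86.8, 94.9, 44.0 and 63.0 CPM in Romidepsin replicates 1 to 4, against 33.6, 31.1, 29.3 and 33.3 CPM in untreated replicates 1 to 4. All treated values exceeded all untreated ones, and treated replicate 3 was the lowest of the treated. The log2 fold change was 1.18 ± 0.23 (SE), adjusted p 0.0064, a 2.27-fold higher level, and it passed under every alternative run. Prmt7, which places single methyl groups on arginine, had 33.6, 45.5, 11.6 and 29.2 CPM in Romidepsin replicates 1 to 4, against 14.2, 14.0, 7.81 and 9.19 CPM in untreated replicates 1 to 4. Treated replicate 3 alone lay inside the untreated range. Prmt7 had a log2 fold change of 1.41 ± 0.39 (SE), adjusted p 0.0218, and the call did not hold without treated replicate 1 or 2 or untreated replicate 3 or 4 (adjusted p 0.0512 to 0.063). Smpd3 and Gm26786 share exon sequence with Prmt7 on the opposite strand. Prmt2, an asymmetric methyltransferase and nuclear receptor coactivator, had 29.0, 28.3, 29.9 and 27.2 CPM in Romidepsin replicates 1 to 4, against 20.1, 15.4, 24.0 and 21.1 CPM in untreated replicates 1 to 4. Its groups were separate, with a log2 fold change of 0.51 ± 0.17 (SE), adjusted p 0.043. It did not pass with the replicate block (adjusted p 0.0551), with DESeq2 size factors (0.0558), or without treated replicate 1, 2, 3 or 4 or untreated replicate 1, 2 or 4 (adjusted p 0.0551 to 0.0982).

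Prmt1, the enzyme responsible for most asymmetric arginine dimethylation, had 28.6, 38.9, 25.5 and 37.1 CPM in treated cells and 61.7, 54.3, 43.8 and 36.8 CPM in untreated cells. Treated replicate 4 and untreated replicate 4 were level, the other treated libraries were lower than their untreated counterparts, and the log2 fold change of -0.59 ± 0.21 (SE), adjusted p 0.0536 did not pass. It passed as lower with DESeq2 size factors (-0.62, adjusted p 0.045), by DESeq2's Wald test and without untreated replicate 4 (-0.71). Prmt9, which methylates the splicing factor SF3B2, had a log2 fold change of -0.35 with separate groups and did not pass (adjusted p 0.0913), though it passed as lower by DESeq2's Wald test. Prmt3, a cytosolic enzyme of ribosomal protein S2, and Prmt6, which methylates H3R2, had log2 fold changes of 0.13 and 0.03, both with overlapping groups. Carm1 (Prmt4) carries no Prmt symbol and is given below. No identifier of the count table matched the symbol Setd9 or Prmt8, so neither was analysed here.

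The sequence before the start of Prmt5 is shown as that of the higher member that passed under every alternative run, and that of Kdm8 as that of a lower one that did so wherever it was tested. Prmt5 is the minus strand at chr14:54517526-54517720 and Kdm8 the plus strand at chr7:125444370-125444619, both from RefSeq's GRCm38.p6 windows, 5′ to 3′, with CCAAT and GC boxes in capitals as above.
Prmt5: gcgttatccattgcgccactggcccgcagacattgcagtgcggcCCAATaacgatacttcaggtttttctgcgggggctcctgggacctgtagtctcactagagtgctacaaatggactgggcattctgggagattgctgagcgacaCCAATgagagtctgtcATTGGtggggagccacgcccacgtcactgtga
Kdm8: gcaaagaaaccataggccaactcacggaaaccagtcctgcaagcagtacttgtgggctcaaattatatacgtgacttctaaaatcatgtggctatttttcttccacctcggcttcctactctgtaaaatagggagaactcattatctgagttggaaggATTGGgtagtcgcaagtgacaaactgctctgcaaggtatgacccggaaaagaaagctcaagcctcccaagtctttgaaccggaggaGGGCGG
The Prmt5 window held 3 CCAAT boxes and no GC box, and the Kdm8 window 1 of each. A set of 6 motifs was searched on both strands, none of which contains another. Shares over windows refer to the full 250 bases before the start, whereas the windows of Kmt5c and Prmt5 were shown and counted over the 238 and 195 bases before the annotated gene. The motifs were the CCAAT box, the GC box GGGCGG, the TATA box TATAAA, the E-box CACGTG, the ETS motif CCGGAAG and the cyclic AMP response element TGACGTCA. Windows were found for 42 of the 54 members, taking the most upstream start of each. The set of all windows was not limited to the most upstream start or to expressed genes, so the shares are not like for like. The CCAAT box was present in 42.9% of them and in 33.8% of all 32851 windows, and the GC box in 59.5% and 32.7%. The TATA box was present in 4.76% and 12.4%, the E-box in 9.52% and 6.02%, the ETS motif in 16.7% and 6.91%, and the cyclic AMP element in 4.76% and 1.55%. The members' windows had a median GC content of 59.6%, against 52.4% for all windows.

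**Figure D2:**
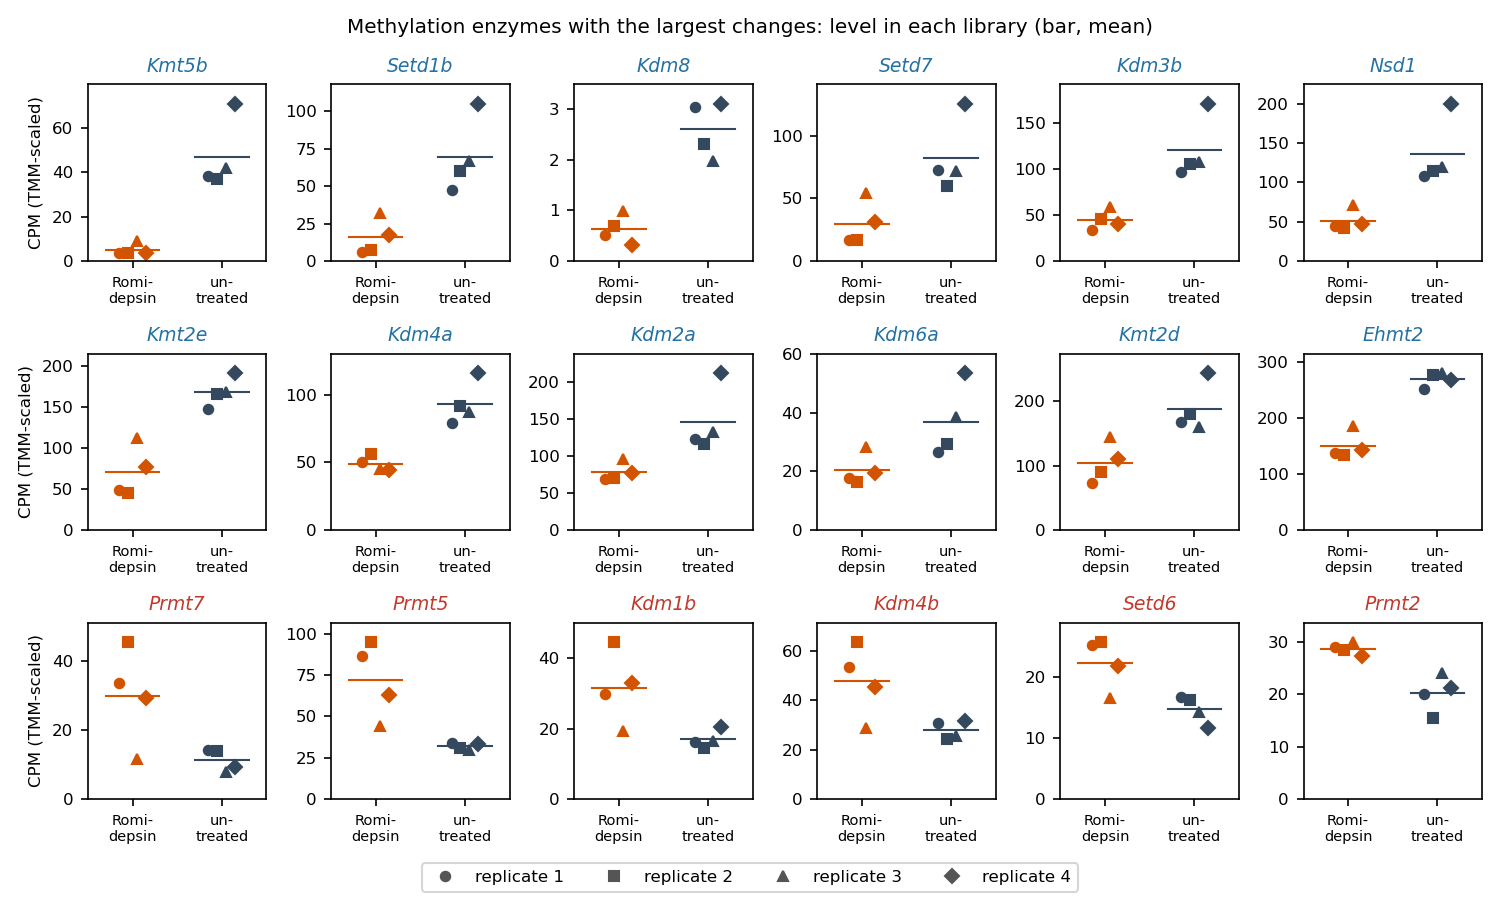
TMM-scaled CPM (y axis, from 0) in each Romidepsin (orange, left) and untreated (dark, right) library for the 12 lower members with the largest differences and the 6 higher ones, with symbols by replicate number and a bar at the mean. Treated replicate 3 (triangle) is the treated library nearest the untreated ones for Kmt5b at 8.94 CPM, Setd1b at 32.4 CPM and Prmt5 at 44.0 CPM, but not for Kdm4a or Prmt2.

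Demethylases of H3K36 gave 2 lower and none higher of 3 (16.2% and 20.3% of all tested genes). Kdm8 (JMJD5), described as an H3K36me2 demethylase and as a protein hydroxylase, was low throughout, with 0.516, 0.699, 0.993 and 0.324 CPM in Romidepsin replicates 1 to 4, against 3.04, 2.31, 1.97 and 3.09 CPM in untreated replicates 1 to 4. These values rest on counts of 9, 11, 15 and 5 in treated libraries and 38, 28, 24 and 64 in untreated libraries. The groups did not overlap, and the log2 fold change was -2.03 ± 0.40 (SE), adjusted p 0.00652. Kdm2a, a CpG island-binding H3K36me2 demethylase, had 68.4, 70.6, 96.1 and 76.8 CPM in Romidepsin replicates 1 to 4, against 123, 116, 133 and 212 CPM in untreated replicates 1 to 4. Untreated replicate 4 was the highest library, no treated value reached the untreated range, and the log2 fold change was -0.90 ± 0.22 (SE), adjusted p 0.0148. It did not pass with housekeeping scaling (-0.25). Kdm2b, its paralog and a recruiter of Polycomb repressive complex 1, had 25.7, 53.5, 23.3 and 27.9 CPM in treated cells and 21.1, 16.4, 16.4 and 34.1 CPM in untreated cells. Treated replicate 2 stood above the others, and the log2 fold change of 0.56 ± 0.33 (SE), adjusted p 0.204 did not pass.

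The JmjC families that act on H3K9 gave 4 lower and 1 higher of 6 tested (16.2% and 20.3% of all tested genes). Kdm3b, which removes H3K9 mono- and dimethylation, had 34.1, 46.0, 59.1 and 40.8 CPM in Romidepsin replicates 1 to 4, against 97.5, 106, 108 and 171 CPM in untreated replicates 1 to 4. The groups were separate, and the log2 fold change was -1.42 ± 0.24 (SE), adjusted p 0.00337. Its paralog Kdm3a had 34.6, 34.6, 47.7 and 44.2 CPM in treated cells and 60.0, 53.2, 47.8 and 69.7 CPM in untreated cells. Treated replicate 3 and untreated replicate 3 nearly met, the groups did not overlap, and Kdm3a had a log2 fold change of -0.52 ± 0.18 (SE), adjusted p 0.046. Kdm3a did not pass with the replicate block (adjusted p 0.0602), without treated replicate 1, 2 or 4 or untreated replicate 1, 2, 3 or 4 (adjusted p 0.0554 to 0.124), or with library size scaling, and turned to 0.16 with housekeeping scaling. Kdm4a (JMJD2A), which demethylates trimethylated H3K9 and H3K36, had 50.0, 55.9, 45.3 and 44.6 CPM in Romidepsin replicates 1 to 4, against 79.2, 91.5, 87.2 and 116 CPM in untreated replicates 1 to 4. Treated and untreated values were separate, and the log2 fold change was -0.93 ± 0.16 (SE), adjusted p 0.00393. Kdm7a, a demethylase of H3K9me2 and H3K27me2, had 92.4, 84.3, 111 and 82.4 CPM in treated cells and 129.8, 129, 153 and 181 CPM in untreated cells. Its groups did not overlap, with a log2 fold change of -0.68 ± 0.17 (SE), adjusted p 0.0164 that did not pass without treated replicate 4 (adjusted p 0.0546) or with library size scaling and was 0.0041 with housekeeping scaling.

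Kdm4b (JMJD2B), which has the same substrates as Kdm4a, went the other way, with 53.5, 63.6, 28.8 and 45.4 CPM in Romidepsin replicates 1 to 4, against 30.7, 24.4, 25.6 and 31.5 CPM in untreated replicates 1 to 4. Treated replicate 3 was inside the untreated range, and the log2 fold change was 0.77 ± 0.24 (SE), adjusted p 0.033. Its call did not hold without treated replicate 1, 2 or 4 or untreated replicate 1, 2 or 3 (adjusted p 0.0515 to 0.0885). Kdm4c, a further member of the family, had 30.4, 36.5, 34.9 and 31.8 CPM in treated cells and 32.4, 27.8, 41.8 and 46.6 CPM in untreated cells, with overlapping groups, and did not pass (-0.16 ± 0.19 (SE), adjusted p 0.527).

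Of the 2 LSD amine oxidases, which demethylate H3K4me1 and H3K4me2, Kdm1b (LSD2) was higher, with 29.9, 44.6, 19.2 and 33.1 CPM in Romidepsin replicates 1 to 4, against 16.1, 14.5, 16.5 and 20.5 CPM in untreated replicates 1 to 4. Treated replicate 3 lay within the untreated range and the other treated libraries above it. The log2 fold change was 0.90 ± 0.25 (SE), adjusted p 0.0231, and the call did not hold without treated replicate 2 or 4 or untreated replicate 1, 2 or 3 (adjusted p 0.0508 to 0.0633). Dek shares exon sequence with Kdm1b on the opposite strand. Kdm1a (LSD1), a subunit of the CoREST deacetylase complex, had 58.9, 62.6, 71.2 and 65.1 CPM in treated cells and 64.4, 55.7, 58.8 and 77.3 CPM in untreated cells, with overlapping groups, and did not pass (0.01 ± 0.15 (SE), adjusted p 0.969).

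In the KDM5 family, which removes H3K4me2 and H3K4me3, 1 of 4 was lower and none higher (16.2% and 20.3% of all tested genes). Kdm5d, the Y-linked member, had 16.7, 20.1, 28.3 and 21.4 CPM in treated cells and 29.3, 31.0, 34.9 and 40.2 CPM in untreated cells. Its groups were separate, with a log2 fold change of -0.65 ± 0.20 (SE), adjusted p 0.0321. Its call did not hold without treated replicate 1, 2 or 4 or untreated replicate 2, 3 or 4 (adjusted p 0.0541 to 0.0871) or with library size scaling, and the value was 0.027 with housekeeping scaling. Kdm5c, the X-linked relative, had 55.6, 74.9, 60.8 and 59.7 CPM in treated cells and 71.5, 72.8, 79.2 and 132 CPM in untreated cells and did not pass (-0.50 ± 0.22 (SE), adjusted p 0.102). Kdm5c and Kdm5d are closely similar, so reads could be divided between them, and their values are uncertain. Kdm5a, the retinoblastoma-binding member, had 123, 122, 111 and 121 CPM in treated cells and 91.9, 91.3, 85.2 and 114 CPM in untreated cells. Only treated replicate 3 lay inside the untreated range, and it did not pass (0.32 ± 0.14 (SE), adjusted p 0.106), though it passed as higher without untreated replicate 4 and with library size or housekeeping scaling. Kdm5b had 77.8, 77.7, 79.4 and 78.1 CPM in treated cells and 41.7, 41.3, 46.9 and 77.0 CPM in untreated cells. Its treated libraries lay close together, just above untreated replicate 4, and its log2 fold change of 0.60 ± 0.21 (SE), adjusted p 0.0521 did not pass. It passed with the replicate block (0.65, adjusted p 0.0372), without untreated replicate 4 (0.85, adjusted p 0.00512), with library size and housekeeping scaling, with a minimum mean of 10 CPM, and by DESeq2's Wald test and limma-voom.

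Of the H3K27 demethylases, Kdm6a (UTX), an X-linked subunit of the Kmt2c and Kmt2d complexes, had 17.7, 16.3, 28.5 and 19.5 CPM in Romidepsin replicates 1 to 4, against 26.8, 29.3, 38.5 and 53.6 CPM in untreated replicates 1 to 4. The groups overlapped at treated replicate 3 and untreated replicate 1, and the log2 fold change was -0.86 ± 0.27 (SE), adjusted p 0.0345. The call did not hold without treated replicate 1, 2 or 4 or untreated replicate 3 or 4 (adjusted p 0.0761 to 0.0874) or with library size scaling (-0.57, adjusted p 0.0811). Its Y-linked relative Uty, from the lists below, was also lower (-1.05 ± 0.30 (SE), adjusted p 0.0247), with overlapping groups. Reads could be divided between Kdm6a and Uty too, so their values are uncertain. Kdm6b (JMJD3), induced by inflammatory signals in macrophages, had 55.3, 69.1, 64.9 and 61.6 CPM in treated cells and 61.7, 58.6, 42.9 and 58.0 CPM in untreated cells, with overlapping groups, and did not pass (0.18 ± 0.16 (SE), adjusted p 0.378). Reads of Kdm6b and Kdm6bos cannot be told apart without a strand setting.

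In total 28 tested members did not pass, with log2 fold changes from -0.67 (Setd4) to 1.18 (Suv39h2). An unadjusted p below 0.05 was given by 7 of them, Prmt1, Kdm5c, Kmt2b, Prmt9, Kdm5b, Ezh2 and Suv39h2. With the replicate block, 8 members were higher and 15 lower (background 21.2% and 20.8%), with Ezh2, Kdm5b and Suv39h2 added and Prmt2, Kdm3a, Kmt5c and Setd5 lost. Nsd2 and Setd3 passed as higher with library size and housekeeping scaling. With no count filter, the members Setd1b, Setd7, Setd2, Setd5, Kdm3a, Prmt2 and Setd6 did not pass, nor did Mtf2 and Ahcyl1, described below. Of the 24 called members, 8 share exon sequence with another annotated gene. Besides those given above, these are Setd7, Kdm3b and Kdm7a on the opposite strand and Prmt2, which holds Mir678, on the same strand.

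Relations between related enzymes were compared as the log2 ratio of their counts within each library, which no scaling between libraries changes. Of 19 pairs, 11 (57.9%) had ratios that did not overlap between groups, beside 35.2% of all pairs of tested genes. Each of the 11 had a two-sided exact permutation p of 0.0286, the smallest that 4 libraries against 4 allow, and 0.0494 after Benjamini-Hochberg adjustment over the 19 pairs. Several pairs share a gene. Kmt5b over Kmt5c was -3.92, -3.64, -2.88 and -3.89 in treated libraries, against -1.47, -1.42, -0.79 and 0.19 in untreated libraries, a difference of -2.71 ± 0.46 (SE). Setd1a over Setd1b was 1.56, 1.23, -0.83 and -0.04 in treated libraries, against -1.48, -1.62, -2.04 and -2.10 in untreated libraries. The ratio was positive in treated replicates 1 and 2 and negative in every other library, and the difference was 2.29 ± 0.58 (SE).

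Nsd1 over Nsd2 was -0.53, -0.84, -0.05 and -0.73 in treated libraries, against 0.67, 1.26, 1.31 and 1.43 in untreated libraries, with opposite signs in the 2 groups and a difference of -1.70 ± 0.24 (SE). Kdm4a over Kdm4b was -0.10, -0.19, 0.65 and -0.02 in treated libraries, against 1.37, 1.91, 1.77 and 1.88 in untreated libraries, a difference of -1.64 ± 0.23 (SE). Kdm2a over Kdm2b differed by -1.42 ± 0.36 (SE) and Suv39h1 over Suv39h2 by -1.25 ± 0.37 (SE), both lower in treated libraries. Kdm4a over Kdm4c also differed, by -0.79 ± 0.16 (SE). Ratios higher in treated libraries were Kmt2c over Kmt2d (0.98 ± 0.24 (SE)), Kdm3a over Kdm3b (0.90 ± 0.18 (SE)), Kdm5a over Kdm5c (0.79 ± 0.16 (SE)) and Kmt2a over Kmt2b (0.74 ± 0.08 (SE)). The ratio of Kmt2a to Kmt2b had the smallest spread, at 0.58, 0.76, 0.64 and 0.74 in treated libraries, against -0.12, 0.00, -0.21 and 0.08 in untreated libraries.

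The other 8 pairs overlapped between groups. Ehmt1 over Ehmt2 (0.99 ± 0.30 (SE)), Kdm6a over Kdm6b (-1.03 ± 0.34 (SE)) and Kdm1a over Kdm1b (-0.84 ± 0.29 (SE)) had an exact p of 0.0571 (adjusted 0.0776). Ezh1 over Ezh2 differed by -0.50 ± 0.38 (SE), with an exact p of 0.286. The 11 calls are at the edge of what the design allows: none passed without treated replicate 2 or any 1 of the untreated replicates 1, 2, 3 and 4, nor with both genes held to a mean of 10 CPM. The 10 CPM rule removed only Suv39h1 over Suv39h2. The remaining pairs of the 11 kept their exact permutation p of 0.0286, and the adjusted p became 0.0514. That loss therefore says nothing about the ratios themselves. With the pairing kept, the smallest possible p is 0.125, so none could pass.

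**Figure D3:**
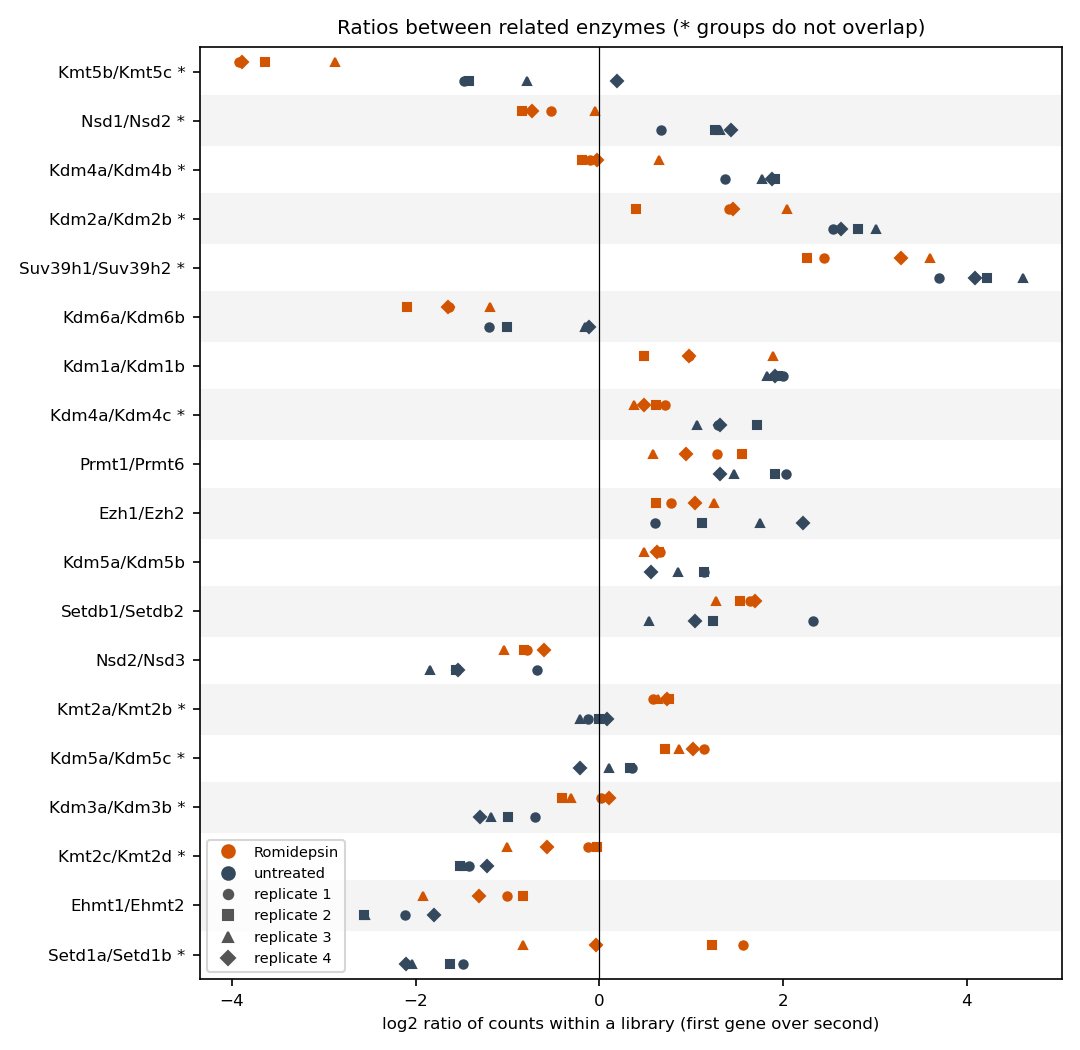
Log2 ratio of counts within each library (x axis) for 19 pairs of related enzymes, with Romidepsin libraries in orange above untreated ones in dark, symbols by replicate number, and an asterisk where the groups do not overlap. The Kmt5b/Kmt5c ratio is -2.88 or below in treated and -1.47 or above in untreated libraries, and the Nsd1/Nsd2 ratio lies below 0 in every treated and above 0 in every untreated library.

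Same-numbered libraries were also set against each other. The median log2 difference of the 18 lower members was -0.91, -1.02, -0.47 and -1.34 in pairs 1 to 4, and that of the 6 higher members 0.85, 1.49, 0.27 and 0.79. All 18 lower members were below 0 and all 6 higher members above 0 in each of the 4 pairs, a direction that the choice of members favours. Pair 3 had the smallest differences, with a median absolute log2 difference of 0.38 over all tested members and 0.42 over all tested genes. The corresponding values in the other pairs were 0.57 to 0.66 for members and 0.68 to 0.86 for all tested genes.

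In untreated cells the members spanned a wide range of levels per length (CPM per kb of exon). Ehmt2 was highest at 49.0, followed by Kmt5a at 28.4, Kmt5c at 21.2, Kdm4a at 16.2 and Kmt2e at 16.1. The lowest tested members were Suv39h2 at 0.387, Setd4 at 0.885, Kdm8 at 1.09, Prmt7 at 1.84 and Prmt3 at 1.86. Of the 5 highest, 4 were called lower in treated cells, and the 5 lowest held 1 lower and 1 higher member. The lower members had a median exon length of 10783 bases and a median untreated level of 101 CPM, the higher members 4426 bases and 18.5 CPM, and the uncalled members 6824 bases and 56.4 CPM. CPM grows with exon length, and per kb of exon the medians were closer, at 8.24, 5.85 and 6.57. The untreated level is also part of the fold change that sets the calls.

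**Figure D4:**
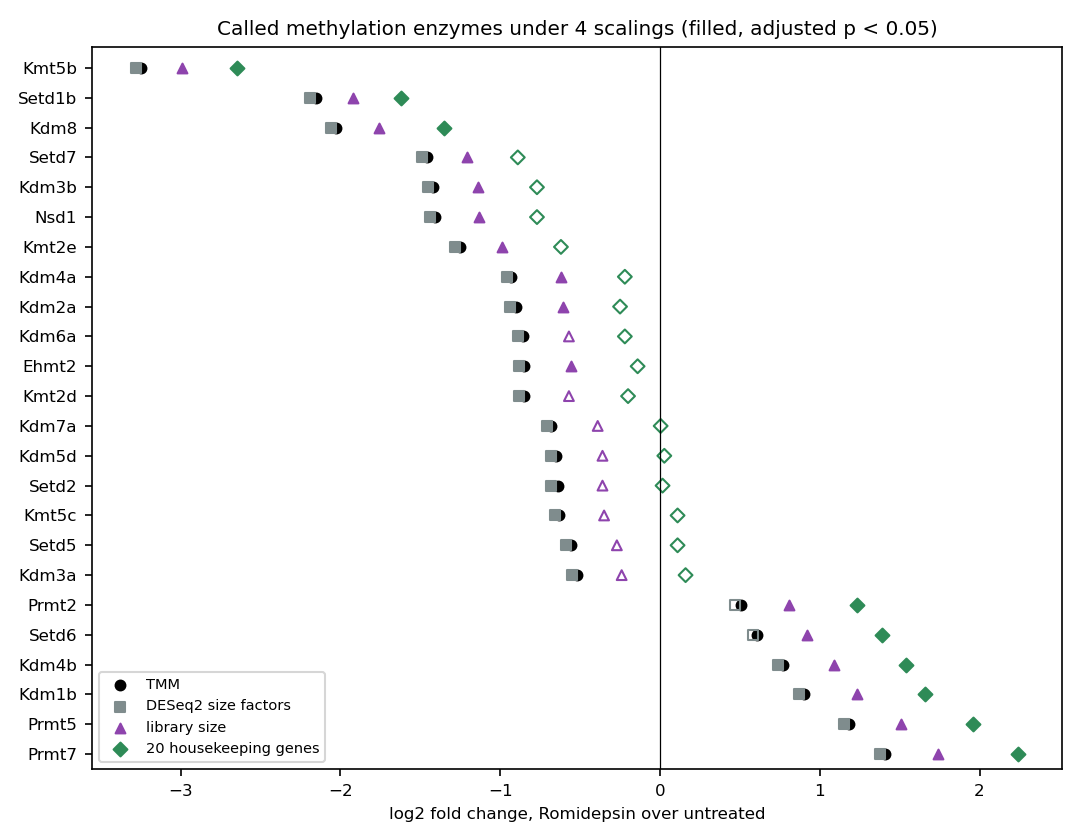
Log2 fold change (Romidepsin over untreated, x axis) of the 24 called methylation enzymes under 4 scalings of the libraries, filled where the adjusted p was below 0.05. All points shift to the right with library size and further with housekeeping scaling, while Kmt5b, Setd1b and Kdm8 stay lower and Prmt5, Prmt7, Kdm1b and Kdm4b stay higher under each.

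The partners of these enzymes, other methylation enzymes, SAM metabolism and readers of methyl-lysine were examined as 6 lists of 72 genes, of which 67 were tested. Of these, 12 (17.9%) were higher and 7 (10.4%) lower, beside 20.3% and 16.2% of all tested genes. Their median log2 fold change was 0.20. With library size and housekeeping scaling, 29 and 43 were higher (background 30.2% and 46.6%) and 6 and 3 lower (background 10.6% and 4.79%). Leaving out treated replicate 1, 2, 3 or 4 gave 5, 7, 23 and 7 higher genes, and leaving out untreated replicate 2 or 3 gave 6 and 4. Lower genes numbered 4 without treated replicate 1 and 4 without treated replicate 4. The counts over all tested genes in the same fits are given above. Several of these partner genes share exon sequence with another annotated gene. Among those described below, Wdr77 shares it with Gm42890 on the same strand and Atp5f1 on the opposite one. Phf2 (with Phf2os1), Ash1l (Dap3), Mtf2 (Tmed5) and Cbx7 (Apobec3) share it on the opposite strand.

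Partners of PRMT5 and LSD1 gave 3 higher and 1 lower of 9 (20.3% and 16.2% of all tested genes). Wdr77 (MEP50), the obligate partner of PRMT5, had 43.0, 36.3, 14.4 and 32.9 CPM in Romidepsin replicates 1 to 4, against 18.8, 12.1, 11.5 and 10.3 CPM in untreated replicates 1 to 4. Treated replicate 3 was inside the untreated range, the log2 fold change was 1.26 ± 0.34 (SE), adjusted p 0.0192, and the call did not hold without treated replicate 1 or untreated replicate 2 or 3 (adjusted p 0.0518 to 0.0566). Coprs, which recruits PRMT5 to histones, had 25.2, 21.9, 11.3 and 18.8 CPM in treated cells and 9.99, 7.85, 8.96 and 5.80 CPM in untreated cells and separate groups (1.25 ± 0.29 (SE), adjusted p 0.0111). Rcor2, a corepressor that binds LSD1, was higher (1.89 ± 0.33 (SE), adjusted p 0.00414). Phf21a (BHC80), which binds unmethylated H3K4 in the LSD1 complex, was lower (-1.47 ± 0.26 (SE), adjusted p 0.00403).

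COMPASS partners gave 2 lower (20%) and none higher of 10, beside 16.2% and 20.3% of all tested genes. With the replicate block, 2 of the 10 were higher, beside 21.2% of all tested genes. Hcfc1, a scaffold shared by SET1 and MLL complexes, had 21.4, 30.0, 48.5 and 28.5 CPM in Romidepsin replicates 1 to 4, against 114, 105, 116 and 197 CPM in untreated replicates 1 to 4. The groups were far apart, with a log2 fold change of -2.05 ± 0.30 (SE), adjusted p 0.00221. Ncoa6, a subunit of the Kmt2c and Kmt2d complexes, was also lower (-1.26 ± 0.28 (SE), adjusted p 0.00991), though not with housekeeping scaling. The core subunits Wdr5 (0.52 ± 0.20 (SE), adjusted p 0.0621) and Ash2l (-0.21 ± 0.15 (SE), adjusted p 0.303) did not pass, and Wdr5 passed as higher with the replicate block (0.51, adjusted p 0.0487), with library size or housekeeping scaling, and without treated replicate 3 or untreated replicate 1. Among 9 PRC2 partners, 1 was higher and none lower (20.3% and 16.2% of all tested genes). Mtf2, which guides PRC2 to CpG islands, was higher (0.52 ± 0.14 (SE), adjusted p 0.0177), though not without treated replicate 1 or untreated replicate 3 (adjusted p 0.0594 to 0.0626). Suz12 (0.37 ± 0.17 (SE), adjusted p 0.116) and Eed (-0.07 ± 0.13 (SE), adjusted p 0.711), the core of PRC2, did not pass, though Suz12 passed as higher with library size or housekeeping scaling and without treated replicate 3.

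Of 17 other methylation enzymes, 4 were lower and 1 higher (16.2% and 20.3% of all tested genes). Phf2, a JmjC protein that acts on H3K9me2, had 13.0, 14.8, 40.7 and 25.9 CPM in treated cells and 59.6, 66.1, 73.2 and 83.2 CPM in untreated cells, with separate groups (-1.58 ± 0.34 (SE), adjusted p 0.00915). Ash1l, an H3K36 methyltransferase, was lower (-1.37 ± 0.37 (SE), adjusted p 0.0194), though not without treated replicate 1 or 4 (adjusted p 0.0524 to 0.0549) or with housekeeping scaling. Smyd3, a lysine methyltransferase of the SMYD family, was higher (1.42 ± 0.38 (SE), adjusted p 0.0192), though not without treated replicate 1 or 2 or untreated replicate 2 or 3 (adjusted p 0.05 to 0.053). Carm1, the asymmetric arginine methyltransferase PRMT4, was at 31.5 ± 1.57 CPM in treated cells and 39.6 ± 3.81 CPM in untreated cells (SD, n = 4 each) and did not pass (-0.33 ± 0.14 (SE), adjusted p 0.0843), though it passed as lower by DESeq2's Wald test. Jmjd1c (-0.46 ± 0.35 (SE), adjusted p 0.319) and Phf8 (-0.30 ± 0.27 (SE), adjusted p 0.406), both JmjC proteins, did not pass.

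SAM metabolism gave 3 higher and none lower of 9 (20.3% and 16.2% of all tested genes). With the replicate block, Mtap alone passed. Mtap, which recycles methylthioadenosine, was higher (0.95 ± 0.28 (SE), adjusted p 0.0276), though not without treated replicate 1, 2 or 4 or untreated replicate 2, 3 or 4 (adjusted p 0.0556 to 0.0779). Ahcyl1, a homolog of the enzyme that removes S-adenosylhomocysteine, was higher (0.59 ± 0.18 (SE), adjusted p 0.0279), though not with the replicate block (adjusted p 0.0524) or without treated replicate 1, 2 or 4 or untreated replicate 1, 2 or 3 (adjusted p 0.0513 to 0.0764). Mat2a, which makes SAM, did not pass (-0.98 ± 0.39 (SE), adjusted p 0.0744), though it passed as lower by DESeq2's Wald test and without treated replicate 2 or untreated replicate 2.

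Readers of methyl-lysine gave 4 higher and none lower of 13 (20.3% and 16.2% of all tested genes). Cbx2, a Polycomb chromodomain protein, had 30.1, 28.2, 19.7 and 29.6 CPM in Romidepsin replicates 1 to 4, against 4.80, 2.48, 2.55 and 4.64 CPM in untreated replicates 1 to 4. Every treated value was several times every untreated one, with a log2 fold change of 2.89 ± 0.29 (SE), adjusted p 0.000709. Cbx7, a related Polycomb reader of H3K27me3, had 46.9, 53.5, 62.4 and 51.1 CPM in treated cells and 26.2, 29.2, 19.6 and 17.3 CPM in untreated cells, again with separate groups (1.21 ± 0.20 (SE), adjusted p 0.00313). Both passed in all 8 fits that leave out 1 library.

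**Figure D5:**
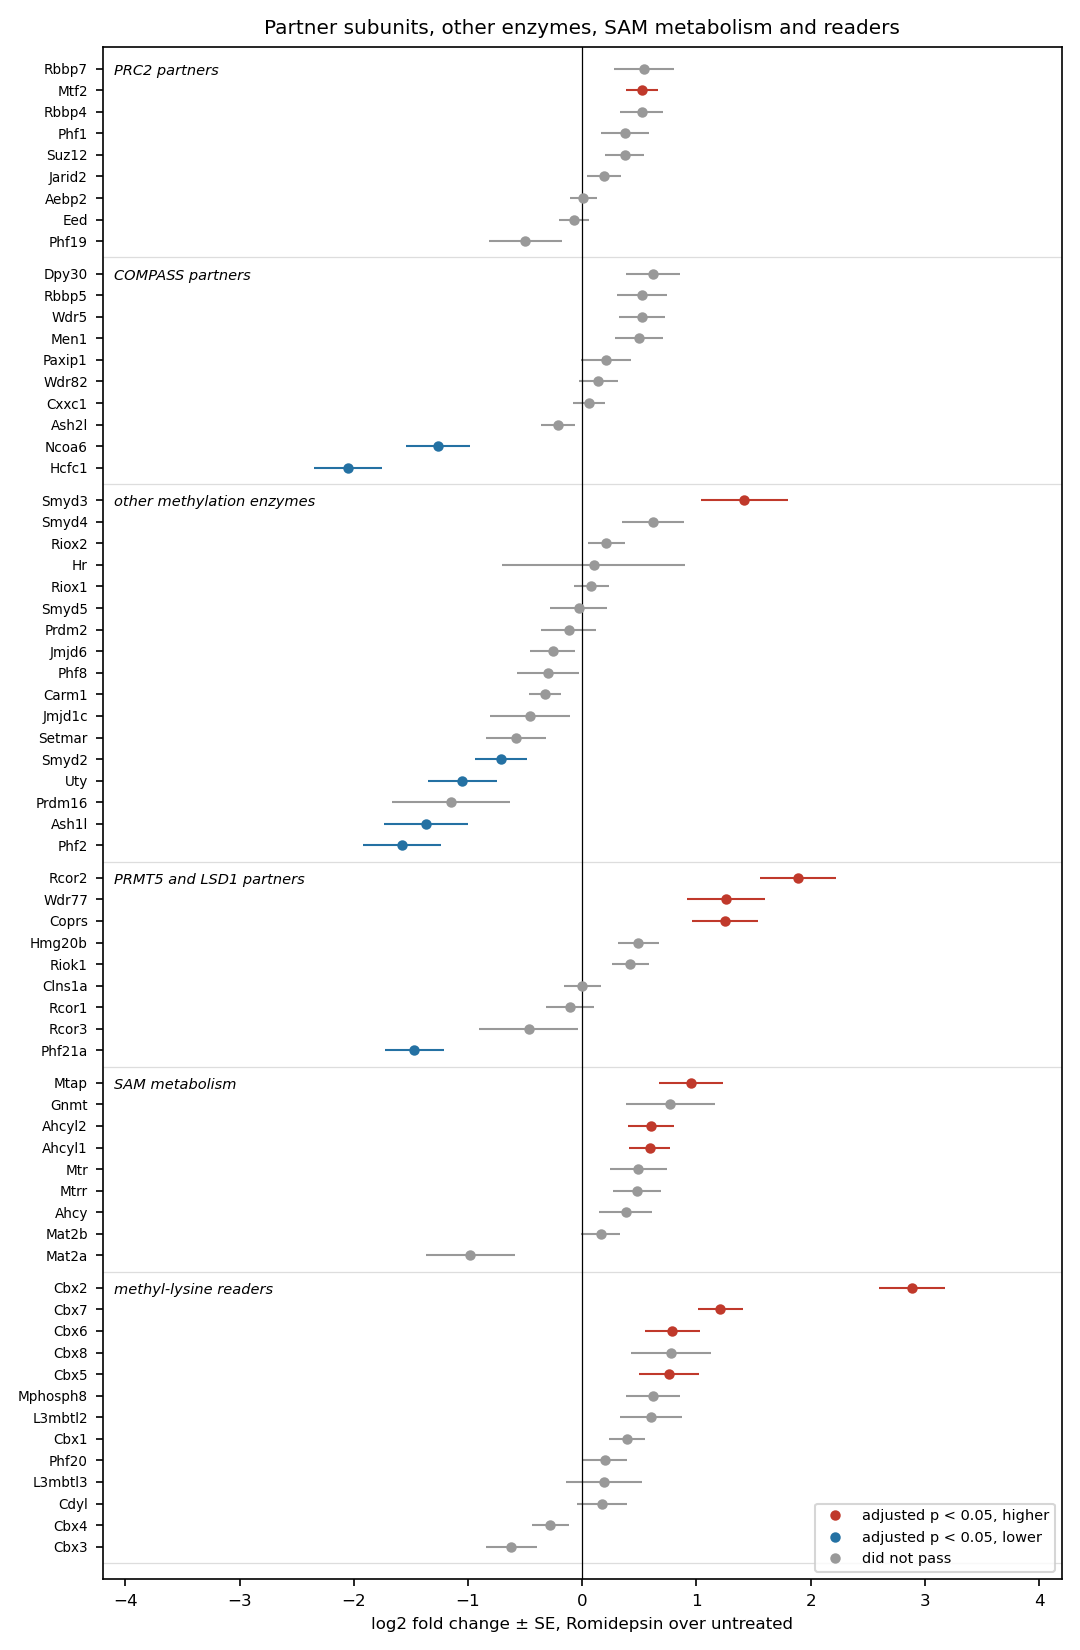
Log2 fold change (Romidepsin over untreated, x axis, bars of 1 SE) of the 67 tested partner subunits, other methylation enzymes, SAM metabolism genes and readers, by list. Of these, 12 are called higher (red), led by Cbx2 at 2.89, and 7 lower (blue), led by Hcfc1 at -2.05.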

How the data were processed

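RNA was measured in 4 Romidepsin and 4 untreated libraries, grouped by the labels' titles and treatments. The authors deposited raw counts per Ensembl gene. The tools named per the submitters' processing notes are STAR 2.5.2a, FastQC and DESeq2, on GRCm38 (mm10). No counting tool, annotation or strand setting is given, so reads of overlapping genes may be assigned to either. Of 26930 identifiers, 26881 matched a symbol in the GENCODE vM21 or gene name tables and 49 did not. Coordinates and exon lengths are GENCODE's on GRCm38, and promoter windows are RefSeq's on GRCm38.p6.

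Counts as deposited were tested with edgeR 4.0.16 in R 4.3.3 (filterByExpr, TMM, robust two-sided quasi-likelihood F test, Benjamini-Hochberg over 12852 genes, threshold 0.05). SE is the absolute log2 fold change divided by the square root of F. CPM values are TMM-scaled. Depth was 12996892 to 23176949 counts, so a gene near 1 CPM rests on few counts. Within-library ratios used counts plus 0.5 and an exact permutation test over all 70 splits. The fit was checked on simulated counts.

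Same-numbered libraries correlated at 0.525, 0.27, 0.457 and 0.171 in their deviations from the group means, and no other combination passed 0.0467. Numbers were therefore treated as pairing the libraries in the replicate block and in the comparisons of same-numbered libraries only. This rests on the data alone; the labels do not explain the numbers. The main comparison leaves it out, as the labels state no design, and block values are given where they change a call.

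Alternatives were other scalings (DESeq2 size factors, library size, housekeeping genes), filters (none, a mean of 10 CPM), tests (DESeq2 1.42.0, voom in limma 3.58.1), the replicate block, and leaving out libraries. Values in every library are given for the called members with the 12 highest and 12 lowest fold changes, which together are all 24 called, and for the most highly expressed uncalled member of each class. Up to 2 called genes per direction in each list of partners, and 9 fixed partners were added, and others were named after their values were seen. The members, lists and pairs were chosen with earlier results of these data known, and 1 gene of the partner lists is not reported here.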

Additional observations from a re-analysis of the deposited data

Results flagged for a closer look

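In 104 groups of 4 libraries (52 tested members in each of 2 groups, on the log2 scale), 7 held a library that stood apart from the other 3. Chance gives about 1 in 20. Treated replicate 3 was that library for Kmt5b (8.94 CPM, the highest treated value), Ehmt2 (185 CPM, the highest) and Kdm5a (111 CPM, the lowest). Untreated replicate 4, the library with the most counts, was that library for Nsd1 (199 CPM), Kdm5c (132 CPM) and Kmt2c (104 CPM), each time as the highest untreated value. Untreated replicate 3 was the lowest untreated library for Prmt3 (9.29 CPM). Without treated replicate 3, the adjusted p of Kmt5b and Ehmt2 stayed below 0.05, and so did that of Nsd1 without untreated replicate 4.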

How the results depend on the processing

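Kmt5b and Prmt5 kept their direction and call in 17 of 17 alternatives and Kdm8 in 16 of 16, since a mean of 10 CPM removes it. Counts of calls moved with scaling and with the libraries left out. With library size alone, members gave 11 higher and 10 lower, all genes 3886 higher and 1368 lower, and partner genes 29 higher and 6 lower. With housekeeping scaling, members gave 20 higher and 3 lower, all genes 5994 higher and 616 lower, and partner genes 43 higher and 3 lower. Leaving out 1 library gave 1 to 7 higher and 9 to 19 lower members, 1716 to 3146 higher and 1183 to 3010 lower genes, 4 to 23 higher and 4 to 8 lower partner genes, and 0 to 13 ratio pairs. Ratio pairs numbered 0 with both genes at a mean of 10 CPM, where the exact p stayed at 0.0286 and the adjusted p was 0.0514. They numbered 0 with the replicate block, where the smallest p of 0.125 cannot pass. The cause of these shifts was not tested. With the replicate block, the fit gave 8 higher and 15 lower members and 12 higher and 8 lower partner genes, and it changed no call of a named gene other than those given. Some log2 fold changes turned sign. With housekeeping scaling, these were 0.16 for Kdm3a, 0.55 for Kdm4c, 0.18 for Kdm5c, 0.027 for Kdm5d, 0.0041 for Kdm7a, 0.24 for Kmt2b, 0.62 for Kmt5a, 0.11 for Kmt5c, 0.35 for Nsd3, 0.19 for Prmt1, 0.36 for Prmt9, 0.55 for Setd1a, 0.016 for Setd2, 0.12 for Setd4, 0.11 for Setd5, 0.42 for Setdb2, 0.59 for Suv39h1, 0.54 for Ash2l, 0.39 for Carm1, 0.65 for Eed, 0.14 for Jmjd1c and 0.36 for Phf8. With library size alone, these were 0.15 for Kdm4c, 0.2 for Kmt5a, 0.15 for Setd1a, 0.065 for Setdb2, 0.12 for Suv39h1, 0.11 for Ash2l, 0.24 for Eed and 0.005 for Phf8. With DESeq2 size factors, the value was -0.023 for Kdm1a and -8.9e-05 for Prmt6. With no count filter, the value was -0.019 for Kdm1a. With the DESeq2 Wald test, the value was -0.024 for Kdm1a and -0.00051 for Prmt6. Without both libraries of number 3, the value was -0.083 for Kdm1a and -0.00014 for Kmt2c. With limma-voom, the value was -0.00092 for Prmt6. Leaving out 1 library, the range was -0.015 to 0.28 for Ezh1, -0.062 to 0.11 for Kdm1a, -0.023 to 0.3 for Kmt2c, -0.18 to 0.032 for Kmt5a, -0.1 to 0.14 for Prmt6 and -0.63 to 0.029 for Jmjd1c. At these depths the low members Kdm8 and Suv39h2 rest on few counts.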
